A study of Mus musculus with 8 samples.

Results

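Loss of CD14 was compared with wild type in mouse bone marrow-derived macrophages 6 h after lipopolysaccharide (LPS), a component of the outer membrane of bacteria. The comparison rested on 2 of the 8 arrays of the series, 1 for each genotype, so no difference below has a replicate check and none carries a p-value. Genes entered the comparison where at least 1 of both arrays was brighter than 88.2, the overall median intensity, which held for 6761 of 12394 genes. The study set macrophages that could activate NFAT, a calcium-dependent transcription factor, against macrophages in which CD14 was missing or calcium was chelated.

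The wild-type cells came from C57BL/6 mice and the CD14-deficient cells from Cd14-/- C57BL/6 mice, all aged 6 to 8 weeks. Bone marrow was cultured for 7 days in 10% serum with M-CSF, which turns marrow progenitors into macrophages. LPS was given at 1 µg/ml for 6 h or 24 h, and each genotype also had an unstimulated array. A wild-type array with LPS and the calcium chelator EGTA at 6 h served here as another wild-type reference. A further wild-type array had LPS and EGTA for 24 h. The labels give 2 mM EGTA for the 24 h array and no dose for the 6 h array. The labels speak of smooth LPS for the wild-type cells and only of LPS for the CD14-deficient cells. The number of mice behind each culture, and any littermate pairing, are not stated in the labels. The cells lacked CD14 throughout their growth, so a missing LPS signal and an earlier effect of the genotype cannot be told apart on the 6 h arrays alone.

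CD14 is a surface protein with no signalling domain that binds LPS and hands it to MD-2 and the receptor TLR4. TLR4 signals from the cell surface through the adaptor MyD88 towards NF-kB and cytokine genes, and from endosomes through the adaptor TRIF towards IRF3 and interferon-beta, which then acts back on the cell through its own receptor. CD14 is known to help carry TLR4 into endosomes, and in dendritic cells to trigger calcium influx and NFAT.

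Cd14 itself stood at 12520 on the wild-type array and at the floor of 38.4, below which values were not ordered, on all 3 CD14-deficient arrays. The labels do not say which part of the gene was deleted, so the probe set may or may not lie in it. All 7 macrophage markers measured lay above the overall median in both genotypes, with a summed intensity of 49820 in wild type and 51870 in CD14-deficient cells. Of 8 neutrophil markers measured, 7 were at the floor on both arrays, among them Mpo, Elane and Ngp, and the exception was S100a8. Most markers of T and NK cells (7 of 8), B cells (4 of 5) and dendritic cells (5 of 6) were at the floor on both arrays. So were those of mast cells (6 of 7) and stromal cells (8 of 10). The exceptions, wild type first, were Ighm of B cells at 222 and 124 and Itgax of dendritic cells at 144 and 264. Cd4 stood at 89.1 and 78.2 and Kit at 84.9 and 66.7. Of the stromal markers, Cdh5 stood at 63.2 and the floor and Pdgfrb at the floor and 51.7. Of 6 erythroid and megakaryocyte markers only 3 were at the floor, and Pf4, a platelet chemokine gene, stood at 4011 in wild type and 4781 in CD14-deficient cells at 6 h and between 4011 and 8297 on all 8 arrays. The others above the floor were close to it at 6 h, Itga2b at 54.7 and 57.2 and Epor at 49.4 and 68.2, wild type first. The summed intensity of these 6 was 4230 and 5021 at 6 h, most of it from Pf4. The part of such cells in the differences was not tested. The Y-linked genes Eif2s3y, Kdm5d and Uty were at the floor and Xist stood between 2306 and 4224 on all 8 arrays. RNA integrity numbers were 9.3 for wild type and 9.7 for CD14-deficient cells, and the trimmed mean of the deposited intensities was 527 and 428. In such bulk RNA fewer cells of a type and less RNA per cell cannot be told apart.

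At 6 h of LPS, 171 genes (2.53% of those compared) were at least 2-fold higher in CD14-deficient cells. Another 208 (3.08%) were at least 2-fold lower, 5.61% in either direction. For every list count at 6 h below, these 2.53% and 3.08% are the shares over all genes. The median log2 difference was 0.02, and 95% of genes fell in the range from -1.10 to 1.01. For the same genes the difference between the wild-type arrays with and without EGTA at 6 h, a pair of one genotype but not replicates, ranged for 95% from -0.60 to 0.56. With the EGTA array as the reference, 209 genes (3.07%) were higher and 261 (3.84%) lower, 6.91% in all. At least 4-fold higher were 25 genes and at least 4-fold lower 30. Among the genes called, 36 had 1 of the arrays at the floor, 18 in each direction, and their fold is given as a lower bound. Just inside the 2-fold limit, at sizes up to 2.2-fold, lay 94 genes, and just outside it, down to 1.82-fold, lay 140.

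Different probe sets for a gene gave a measure of the technical scatter within these arrays. Over 2673 genes with more than 1 bright probe set, their log2 differences had a standard deviation within a gene of 0.26, which is scatter between probe sets and not between cultures. Of 137 called genes with another bright probe set, 135 had all of them on the same side of 0 and 93 had all of them past 2-fold. The exceptions were Adi1, whose chosen probe set gave 2.65 and whose others gave -0.25 and -2.22, and Esco1.

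**Figure D1:**
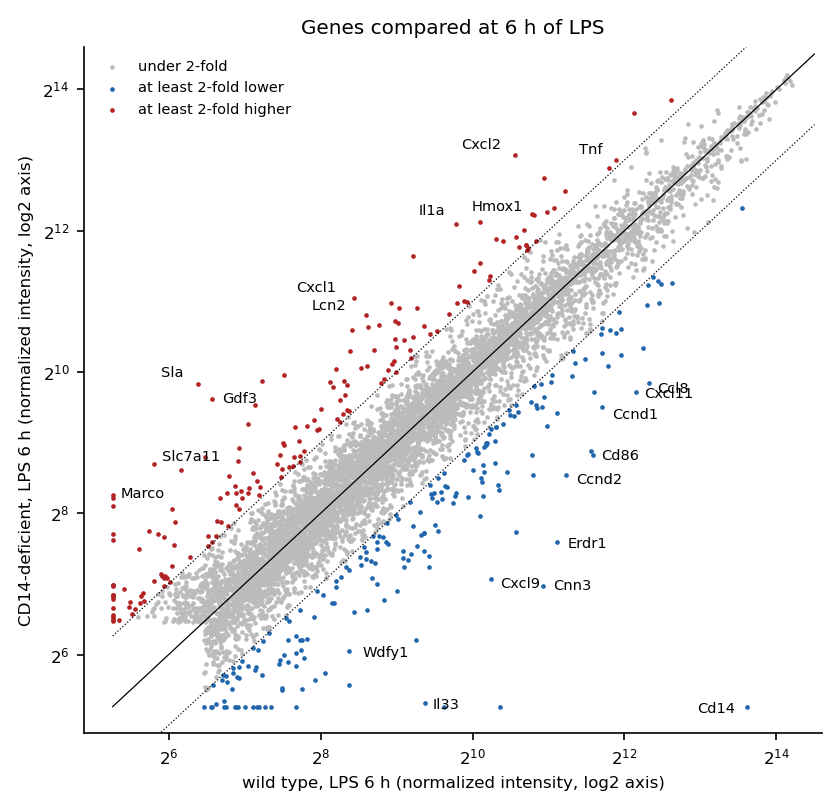
Normalized intensity of the 6761 genes compared at 6 h of LPS, wild type on the horizontal and CD14-deficient on the vertical log2 axis, 1 point per gene, with dotted lines at 2-fold. The 171 genes above the upper line include Sla, Cxcl1, Cxcl2, Il1a and Slc7a11, the 208 below the lower line include Cnn3, Il33, Cxcl9, Cxcl11 and Cd86, and points along the edges lie at the floor.

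Interferon-beta and 2 of the 3 chemokines that attract T cells through the receptor CXCR3 were lower in CD14-deficient cells, while the third was nearly level at 6 h. The 250 bases before the start of each gene are shown because all of them are known targets of LPS signalling and their levels parted in these cells. Capitals mark matches to a loose NF-kB motif, GGGNNNNNCC, and to a loose interferon-stimulated response element, GAAANNGAAA, searched on both strands. Sequences and coordinates are from RefSeq on GRCm38.p6. The windows lie on the minus strand at chr4:88522795-88523044 for Ifnb1, chr5:92328080-92328329 for Cxcl9 and chr5:92348890-92349139 for Cxcl10, and Cxcl11 was not matched in the table used.
Ifnb1: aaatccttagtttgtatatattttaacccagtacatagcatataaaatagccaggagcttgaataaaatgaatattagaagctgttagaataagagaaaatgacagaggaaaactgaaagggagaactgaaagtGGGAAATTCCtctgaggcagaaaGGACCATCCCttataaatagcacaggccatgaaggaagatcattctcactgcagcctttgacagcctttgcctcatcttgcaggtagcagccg
Cxcl9: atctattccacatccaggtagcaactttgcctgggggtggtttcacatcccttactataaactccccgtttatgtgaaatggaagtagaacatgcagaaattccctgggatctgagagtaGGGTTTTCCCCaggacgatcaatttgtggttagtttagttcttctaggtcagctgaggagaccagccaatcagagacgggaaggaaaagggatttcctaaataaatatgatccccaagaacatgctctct
Cxcl10: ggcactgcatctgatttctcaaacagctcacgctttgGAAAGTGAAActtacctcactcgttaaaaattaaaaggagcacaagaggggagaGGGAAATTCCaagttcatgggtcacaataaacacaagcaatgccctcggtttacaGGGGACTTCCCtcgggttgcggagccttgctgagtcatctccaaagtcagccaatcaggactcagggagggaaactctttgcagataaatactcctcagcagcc
The NF-kB letters occur 2 times before Ifnb1, 2 times in overlap before Cxcl9 and 3 times before Cxcl10. They are common, in 45.8% of all 32851 promoter windows of that length and 61.3% of the windows of compared genes. Windows of genes called higher held them in 60.7% and those of genes called lower in 54%. The response element letters were found before Cxcl10 only, 213 bases from the start, and in 2.98% of all windows. The pattern fixes the gap between its GAAA runs, and other gaps, such as that in gaaaactgaaa before Ifnb1, were not searched. The lack of a match before Ifnb1 and Cxcl9 thus does not mean that no such element is there. A match is a run of letters and not a measured site.

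Ifnb1, which encodes interferon-beta, stood in wild-type cells at the floor before LPS, at 214 at 6 h and at 224 at 24 h, with 209 and 150 in the presence of EGTA. In CD14-deficient cells it stood at the floor, 66.8 and the floor. All 4 wild-type LPS arrays thus lay above both CD14-deficient LPS arrays, and the difference at 6 h was 3.20-fold, at an intensity close to the floor. Cxcl9 stood at 47.0, 1217 and 2039 in wild type, at 1244 and 1788 with EGTA, and at the floor, 134 and 182 in CD14-deficient cells. It was 9.10-fold lower at 6 h, or 9.30-fold lower against the array with EGTA. Cxcl11 stood at 78.5, 4533 and 7371 in wild type, at 5713 and 6649 with EGTA, and at the floor, 843 and 463 in CD14-deficient cells, 5.38-fold lower at 6 h. For both chemokines every wild-type LPS array exceeded every CD14-deficient one. Cxcl10 departed from them, at 511, 14310 and 12400 in wild type, 13830 and 11970 with EGTA, and at the floor, 12920 and 7035 in CD14-deficient cells. Its log2 difference at 6 h was -0.15, although the CD14-deficient array started from the floor. Both 6 h values are near the top of the scale, where the highest deposited intensities were 19860 and 18310, and the part of probe saturation in this was not tested.

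Of 23 antiviral effector genes compared, which interferon induces, 1 was at least 2-fold lower at 6 h and 0 higher. By sign alone 20 lay below 0 and 3 above, and the median was -0.29 beside 0.02 for all genes. The one called was Isg20, an RNA exonuclease gene, at 945 before and 5741 at 6 h of LPS in wild type and at the floor and 2428 in CD14-deficient cells, 2.37-fold lower. Oasl1, an oligoadenylate synthetase-like gene, and Mx2, a dynamin-like GTPase gene, lay at -0.94 and -0.91. Before LPS the same list had been 22 of 23 at least 2-fold lower, on arrays where 3.2% of all genes compared were, with a median of -2.70. At 24 h it had 5 of 23 lower, where 6.21% of all genes were. The log2 response to 6 h of LPS, which subtracts the unstimulated array and so shares the 6 h arrays with the difference above, was larger in CD14-deficient cells for all 23. The difference between the times was not tested.

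The guanylate-binding proteins and immunity-related GTPases, which attack vacuoles that hold microbes, had a median of -0.44 over 8 genes, all below 0, of which 1 was called lower. Iigp1 stood at 1320, 11990 and 11000 in wild type and at 53.9, 5103 and 3934 in CD14-deficient cells, 2.35-fold lower at 6 h. The members Gbp6 and Irgm2 lay at -0.62 and -0.67. All 8 had been at least 2-fold lower before LPS, against 3.2% of all genes. Gbp8, which was not in the list and was among the largest decreases, stood at 760, 1528 and 3232 in wild type and at 121, 213 and 501 in CD14-deficient cells, 7.17-fold lower at 6 h. It was lower at all 3 times by a similar size, at log2 differences of -2.66, -2.84 and -2.69. Of 5 Schlafen genes, a family linked to immune cell quiescence and antiviral defence, Slfn4 was 2.46-fold lower at 6 h and 1.85-fold lower against the array with EGTA, and the median was -0.48.

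Sensors of nucleic acids were 2 of 8 at least 2-fold lower, against 3.08% of all genes, with a median of -0.60. Sting1, the adaptor that relays cytosolic DNA, stood at 473 in wild type, 430 with EGTA and 189 in CD14-deficient cells at 6 h, 2.51-fold lower, and had been level before LPS at a log2 difference of 0.04. Tlr3, the endosomal sensor of double-stranded RNA, stood at 465, 3584 and 2813 in wild type and at 213, 1540 and 1017 in CD14-deficient cells, 2.33-fold lower at 6 h and lower by a similar factor at the other times. Aim2, a cytosolic DNA sensor gene, lay at -0.77. Of 10 genes of interferons, their receptors and kinases, 2 were called higher, both chains of the interferon-gamma receptor, and 1 lower. Each chain was under 2-fold in another setting, Ifngr1 with the intensities as deposited and Ifngr2 with the mean over probe sets. Ifngr1 stood at 333 in wild type and 695 in CD14-deficient cells and Ifngr2 at 1096 and 2984, but another probe set for Ifngr2 gave a log2 difference of 0.44 in place of 1.45. Of 14 interferon regulatory factor and STAT genes only Irf4 was called. Irf4, a factor of lymphoid and alternatively activated cells, stood at 177 in wild type and 60.5 in CD14-deficient cells, 2.93-fold lower, and Irf3, which TRIF activates, lay at 0.32.

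Cxcl1 and Cxcl2, which attract neutrophils, were higher in CD14-deficient cells. So were 3 of 9 genes in a list of the IL-1 family, its processing and its antagonists. Cxcl1 and Cxcl2 were the 2 of 4 measured neutrophil chemoattractant genes bright enough to compare. The windows before Cxcl1, at chr5:90890995-90891244, and Cxcl2, at chr5:90903649-90903898, both on the plus strand of GRCm38.p6 from RefSeq, are shown because these neighbouring genes of one family had the largest positive differences of the chemokine genes listed. Capitals again mark the loose NF-kB letters.
Cxcl1: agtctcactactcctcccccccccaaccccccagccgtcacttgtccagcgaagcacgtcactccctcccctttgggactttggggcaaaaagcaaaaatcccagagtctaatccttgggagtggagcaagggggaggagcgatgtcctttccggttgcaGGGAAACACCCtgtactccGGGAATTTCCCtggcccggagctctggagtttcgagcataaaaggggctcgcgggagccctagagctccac
Cxcl2: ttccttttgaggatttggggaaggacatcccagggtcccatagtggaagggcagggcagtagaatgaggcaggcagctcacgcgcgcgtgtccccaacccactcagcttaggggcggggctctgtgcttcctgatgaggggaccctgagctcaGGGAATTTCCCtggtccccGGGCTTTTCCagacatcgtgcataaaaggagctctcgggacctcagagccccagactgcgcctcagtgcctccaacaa
Both windows hold the 11 letters GGGAATTTCCC, 71 bases before the start of Cxcl1 and 97 bases before that of Cxcl2. This exact run was chosen after the sequences were seen, as the longest run of the marked letters that both windows share. It occurs in 14 of 32851 windows, or 0.0426%, and in 3 windows of compared genes, 2 of them those of Cxcl1 and Cxcl2. It is absent from the Ifnb1, Cxcl9 and Cxcl10 windows, which is no test because the run was picked from the Cxcl1 and Cxcl2 windows.

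Cxcl1 stood at 46.1, 348 and 159 in wild type, at 287 and 71.0 with EGTA, and at the floor, 2115 and 116 in CD14-deficient cells. Cxcl2 stood at 469, 1507 and 1904 in wild type, at 1207 and 1010 with EGTA, and at 158, 8583 and 1641 in CD14-deficient cells. Both were highest of all 8 arrays on the CD14-deficient 6 h array, 6.08-fold and 5.69-fold above wild type there, and neither was higher than wild type before LPS or at 24 h. Against the array with EGTA they were 7.36-fold and 7.11-fold higher. S100a8, a subunit of calprotectin and the neutrophil marker above the floor, was 99.8 and 236, while S100a9 was at the floor. The summed intensity of the 8 neutrophil markers was 368 and 505 at 6 h, and 359 to 844 over all arrays. At 6 h only S100a8 lay above the floor, so the 6 h sums hold no more than the S100a8 values. The part of neutrophils in these differences was not tested.

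Il1a and Il1b, the genes of both IL-1 cytokines, were also highest on that array. Il1a stood at the floor, 879 and 1650 in wild type, at 647 and 1583 with EGTA, and at the floor, 4386 and 1886 in CD14-deficient cells, 4.99-fold higher at 6 h. Il1b stood at 101, 4472 and 5388 in wild type, 3672 and 4698 with EGTA, and 42.1, 13060 and 8461 in CD14-deficient cells, 2.92-fold higher. Nlrp3, which encodes the inflammasome sensor that leads to IL-1 processing, stood at 437 in wild type, 558 with EGTA and 1622 in CD14-deficient cells at 6 h, 3.71-fold higher. By contrast Casp1, the protease gene of the inflammasome, lay at -0.55, and Il1rn, the gene of the receptor antagonist, at -0.23. Il18, another product of the inflammasome, lay at -0.41, and Il1rap, a shared receptor chain gene, at -0.27.

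Il33, an alarmin of the same family, was at the other extreme. It stood at the floor, 661 and 216 in wild type, at 383 and 143 with EGTA, and at the floor, 39.7 and the floor in CD14-deficient cells. The 6 h difference of 16.7-fold was the largest decrease with both arrays above the floor, although 39.7 barely clears it, and every wild-type LPS array exceeded both CD14-deficient ones. Il18bp, the gene of a secreted IL-18 antagonist induced by interferon, was 740 and 286, 2.59-fold lower. It had been 9.44-fold lower before LPS, at 674 and 71.45, and was lower at 24 h as well. Of the 9 genes compared in this list, 3 were thus higher and 2 lower, with a median of -0.27. The list also holds Nlrp3, Casp1 and Il18bp, which are not cytokines of the family.

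Genes of secreted antibacterial and acute-phase proteins were higher in 3 of 5 compared, against 2.53% of all genes. Their median was 1.23, and none was lower. Lcn2, which encodes a protein that withholds iron from bacteria by binding their siderophores, stood at the floor, 388 and 908 in wild type, at 256 and 649 with EGTA, and at the floor, 1797 and 2764 in CD14-deficient cells, 4.63-fold higher at 6 h. Saa3, a serum amyloid A gene, stood at 423, 6260 and 15890 in wild type and at 42.8, 14700 and 14200 in CD14-deficient cells, 2.35-fold higher at 6 h and lower before LPS. The lysozyme genes Lyz1 and Lyz2 were level, at 0.00 and 0.06.

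Among CC chemokines, which attract monocytes and lymphocytes, 2 of 11 were called lower and 0 higher, against 3.08% and 2.53% of all genes. Their median was -0.11. Ccl8 stood at 2254, 5119 and 9515 in wild type, 4429 and 7835 with EGTA, and at 68.1, 920 and 1663 in CD14-deficient cells, 5.57-fold lower at 6 h and lower at all 3 times. Ccl12 was 5575 and 2509, 2.22-fold lower, or 1.85-fold lower against the array with EGTA, and its neighbour in the family Ccl7 lay just outside the limit at -0.98. Close paralogues of this family can share probes, so their values may not be independent.

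**Figure D2:**
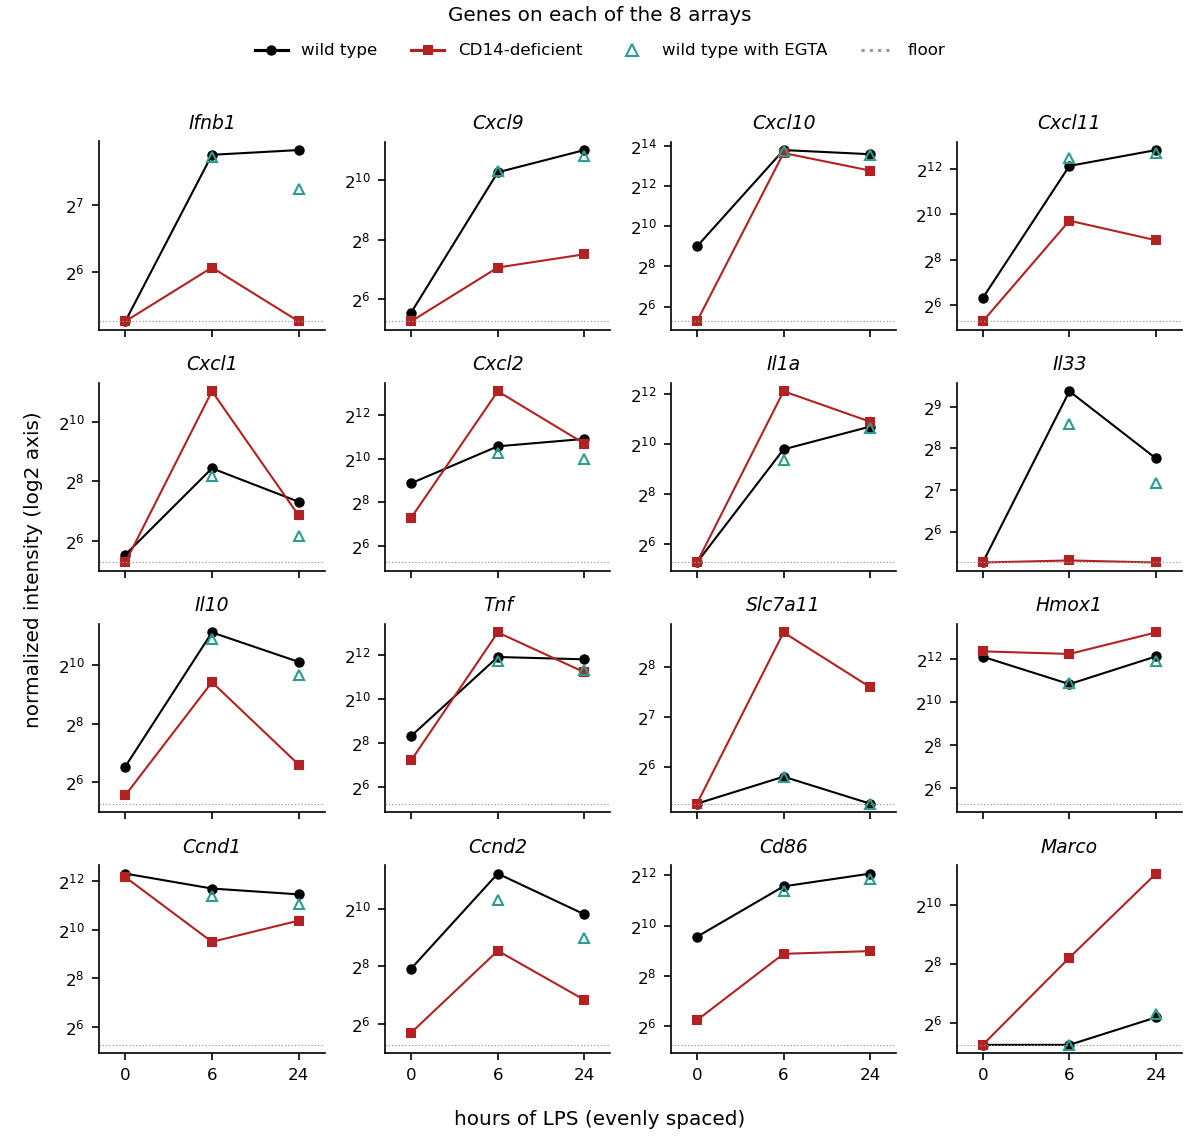
Normalized intensity on a log2 axis of 16 genes in unstimulated cells and at 6 h and 24 h of LPS, 1 point per array, for wild type, CD14-deficient cells and wild type with EGTA, with the floor of 38.4 dotted. Cxcl1, Cxcl2, Il1a and Tnf peak on the CD14-deficient 6 h array, while Cxcl9, Cxcl11, Il33, Il10 and Cd86 lie below every wild-type LPS array there and Cxcl10 meets wild type at 6 h.

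Tnf was higher and Il10 lower at 6 h. Tnf, the gene of tumour necrosis factor, stood at 320, 3802 and 3535 in wild type, 3398 and 2507 with EGTA, and 149, 8213 and 2360 in CD14-deficient cells. It was 2.16-fold higher at 6 h, highest of all 8 arrays there, and under 2-fold with the intensities as deposited. Il10, which encodes the cytokine that restrains macrophage activation, stood at 92.6, 2223 and 1107 in wild type, 1894 and 813 with EGTA, and 46.9, 684 and 97.1 in CD14-deficient cells, 3.25-fold lower at 6 h. Il12b, the shared subunit gene of IL-12 and IL-23, was 307 in wild type, 316 with EGTA and 627 in CD14-deficient cells, 2.04-fold higher against the first and 1.99-fold against the second. Il6 stood at 1538 in wild type, 977 with EGTA and 2510 in CD14-deficient cells at 6 h and at 816, 350 and 131 at 24 h. Its log2 difference was 0.71 at 6 h and -2.64 at 24 h. Ebi3, a subunit gene of IL-27, lay at -0.53.

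Of 8 TNF superfamily and growth factor genes compared, 3 were lower and 1, Tnf, was higher, against 3.08% and 2.53% of all genes. Hbegf, a ligand of the EGF receptor, was 393 in wild type, 225 with EGTA and 99.0 in CD14-deficient cells, 3.96-fold lower at 6 h. Vegfa, the angiogenic factor gene, was 346, 390 and 97.3, 3.55-fold lower, and another of its probe sets gave -0.90 in place of -1.83. Tnfsf10, the gene of the death ligand TRAIL, was 878, 869 and 311, 2.82-fold lower. Il15ra, which presents IL-15 to other cells, was the only one of 16 cytokine and TNF receptor genes called, at 1911 and 913, 2.09-fold lower.

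Of 10 genes of T cell costimulation and checkpoints, 1 was called higher and 1 lower, and the median was -0.37. Cd86, a ligand of CD28, stood at 751, 3006 and 4273 in wild type, 2613 and 3697 with EGTA, and 75.8, 470 and 507 in CD14-deficient cells, 6.39-fold lower at 6 h and lower at all 3 times. Its relative Cd80 was 192 and 116, a log2 difference of -0.73, and Cd40 lay at -0.24. Icosl, the ligand gene of ICOS, was higher, at 171 in wild type, 220 with EGTA and 416 in CD14-deficient cells, 2.43-fold against the first and 1.90-fold against the second. The antigen presentation genes showed no member past 2-fold at 6 h. MHC class II genes had a median of -0.17 over 8 genes, from Ciita, their master regulator, at -0.63 to Ifi30 at 0.10. MHC class I and immunoproteasome genes had a median of -0.20 over 11. Before LPS, 5 of 7 and 6 of 11 of them had been at least 2-fold lower, against 3.2% of all genes.

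The compared genes of the signalling apparatus were mostly close between genotypes. Of 14 LPS receptor and Toll-like receptor genes compared, only Cd14 and Tlr3 were called. Tlr4 stood at 892 in wild type and 720 in CD14-deficient cells, and Ly96, which encodes MD-2, at 1274 and 1064. Tlr2, a receptor for lipoproteins, stood at 4347 in wild type, 5294 with EGTA and 7667 in CD14-deficient cells, a log2 difference of 0.82, and Tlr1, its partner, at 1231 and 2050. The other Toll-like receptor genes compared, Tlr6, Tlr7 and Tlr8, lay at 0.01, 0.16 and 0.63, and the endosomal chaperone gene Unc93b1 at 0.07. Cd180 and Ly86, whose products form a TLR4-like complex, lay at -0.41 and -0.68. Itgam and Itgb2, the chains of complement receptor 3, which also binds LPS, lay at 0.11 and 0.33.

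None of 11 adaptor and kinase genes compared passed 2-fold. They ranged from -0.21 for Tbk1, the kinase of IRF3, to 0.73 for Syk, a kinase downstream of immune receptors. The list held 19 genes, of which 12 were measured. The gene of the adaptor TRIF was not among the 11 compared, so its level is not known here. Myd88 lay at -0.17. None of 13 NF-kB subunit and inhibitor genes passed either. Their median was 0.34, or -0.01 with the intensities as deposited, where the median of all genes was -0.27. The subunit genes Relb and Nfkb2 lay at 0.68 and 0.66, and Tnip1, which restrains NF-kB, lay highest at 0.85.

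Feedback inhibitors of LPS and cytokine signalling differed in both directions, with 2 of 13 higher and 2 lower, against 2.53% and 3.08% of all genes. Socs2, which restrains cytokine receptors, was 331 in wild type, 232 with EGTA and 66.5 in CD14-deficient cells, 4.97-fold lower, and 2 of its probe sets gave -2.31 and -2.48. Socs1, the main brake on interferon receptors, was 711, 850 and 298, 2.38-fold lower. Higher were Zc3h12a, the gene of an RNase that degrades cytokine mRNA, at 1.10, and Trib1, at the floor in wild type and 89.8 in CD14-deficient cells, at least 2.34-fold, but under 2-fold with the mean over probe sets. Of 6 dual-specificity phosphatase and Sprouty genes, Dusp16, which acts on JNK, was 258 and 710, 2.75-fold higher. Dusp2 lay at -0.95 against wild type and at -2.63 against the array with EGTA.

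Genes of calcineurin and NFAT were close between genotypes, with none of 9 at least 2-fold apart and a range from -0.50 for Nfatc1 to 0.45 for Nfat5. Rcan1, the calcineurin inhibitor gene that NFAT is known to induce, was 1311 in wild type, 837 with EGTA and 1043 in CD14-deficient cells at 6 h. Its log2 difference was -0.33 against wild type and 0.32 against the array with EGTA. Of 9 candidate targets of NFAT compared, Egr2, Ptges and Tnf were higher and Il10 lower, with a median of 0.00. Il2 and Csf2, classical targets in T cells, were at the floor on all 8 arrays. None of 9 genes of calcium handling was called, and Itpr2, a calcium release channel gene, and Atp2a3, a calcium pump gene, lay at 0.68 and -0.67.

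Ptges, which encodes the enzyme that completes prostaglandin E2, stood at 69.1, 657 and 2711 in wild type, 485 and 1106 with EGTA, and 41.2, 1607 and 1829 in CD14-deficient cells, 2.45-fold higher at 6 h. Ptgs2, the inducible cyclooxygenase gene one step before it, was 1612, 1140 and 1907 on the wild-type, EGTA and CD14-deficient arrays at 6 h, a log2 difference of 0.24. Ptger2, a receptor for prostaglandin E2, was at the floor in wild type and 93.6 in CD14-deficient cells, at least 2.44-fold higher. The other 9 of 11 prostaglandin and leukotriene genes lay within 2-fold. Nos2, the inducible nitric oxide synthase gene, was 832, 1027 and 440 at 6 h, a log2 difference of -0.92.

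Of 17 compared genes of glutathione metabolism and of the oxidative stress factor NRF2, 7 were at least 2-fold higher in CD14-deficient cells, 0 were lower and the other 10 lay within 2-fold, against 2.53% and 3.08% of all genes, and the median was 0.37. The count was 5 with the intensities as deposited and 6 against the array with EGTA. Nfe2l2, which encodes NRF2 itself, stood at 2776, 1266 and 2223 in wild type, 1721 and 3024 with EGTA, and 3097, 3764 and 2591 in CD14-deficient cells. Its 6 h value in wild type was the lowest of the 8 arrays and that in CD14-deficient cells the highest, 2.97-fold apart. Hmox1, the heme oxygenase gene, showed the same dip in wild type, at 4353, 1801 and 4400, with 1885 and 3747 in EGTA, and stood at 5172, 4757 and 9515 in CD14-deficient cells, 2.64-fold higher at 6 h.

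Further members were named after their values were seen. They were Gclm, a subunit gene of the enzyme that starts glutathione synthesis, at 1.35, Txnrd1, the thioredoxin reductase gene, at 1.33, Gsr, the glutathione reductase gene, at 1.11, and Srxn1, the sulfiredoxin gene, at 1.01. For Txnrd1 and Srxn1 neither of the 2 other bright probe sets passed 2-fold, and the lowest gave 0.86 and 0.48. The other bright probe set for Gsr did pass, at 1.40. Gclc, the other subunit gene of that synthesis enzyme, was just under 2-fold at 0.99. Keap1, the NRF2 repressor gene, lay at -0.19, and the metallothionein genes Mt1 and Mt2 at 0.23 and 0.13.

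Slc7a11, which encodes the cystine transporter that feeds glutathione synthesis, was the largest member. Its window from RefSeq on GRCm38.p6, at chr3:50443614-50443863 on the minus strand, is shown because the gene is a known target of both NRF2 and ATF4, the factor of amino acid stress. Capitals mark the letters TGATGNAA of an amino acid response element, searched on both strands.
Slc7a11: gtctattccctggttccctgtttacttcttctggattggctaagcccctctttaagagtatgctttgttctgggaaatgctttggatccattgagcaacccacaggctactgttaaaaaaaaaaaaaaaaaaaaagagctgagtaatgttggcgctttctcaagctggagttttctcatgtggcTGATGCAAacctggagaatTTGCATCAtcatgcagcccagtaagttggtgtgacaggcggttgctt
The letters TGACNNNGC of an antioxidant response element, to which NRF2 binds, were searched too and have no match in this window, while 10.2% of all windows hold them. The amino acid response element letters stand in opposite orientation 66 and 47 bases before the start and occur in 3.45% of all windows and 2.02% of the windows of compared genes. The transporter gene stood at the floor, 55.9 and the floor in wild type, at 55.6 and the floor with EGTA, and at the floor, 417 and 194 in CD14-deficient cells, 7.46-fold higher at 6 h. The dim wild-type values make that fold imprecise. Of 10 genes of ATF4 and amino acid stress, Slc7a11 was the only one called. Atf4 lay at 0.55, Sesn2, a stress sensor gene, at -0.74, and the list's median was 0.03.

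Of 8 genes of cholesterol efflux and its regulation, 2 were called higher and 0 lower. Abca1, the cholesterol exporter gene, was 2156 in wild type, 1940 with EGTA and 5109 in CD14-deficient cells, 2.37-fold higher, and its 3 probe sets gave 1.24, 1.51 and 1.71. Apoe, which accepts that cholesterol, was 1567, 1516 and 3497, 2.23-fold higher. With the intensities as deposited both were under 2-fold, though on the same side of 0. Nr1h3, which encodes the sterol-sensing factor LXR alpha, lay at 0.67, and Abcg1, another exporter gene, at -0.58. None of 14 cholesterol synthesis genes was called, and their median was 0.45, or 0.12 as deposited. Idi1 and the regulator Srebf2 lay highest at 0.94 and 0.89. Fasn, the fatty acid synthase gene, was 201, 211 and 443, 2.20-fold higher at 6 h and higher at all 3 times. Of 19 glycolysis and hypoxia genes Egln3, an oxygen-sensing hydroxylase gene at the floor on all wild-type arrays, was at least 2.38-fold higher and Vegfa lower. Egln3 was under 2-fold as deposited and with the mean over probe sets.

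Of the 3 D-type cyclin genes, whose products drive entry into the cell cycle, 2 were lower in CD14-deficient cells. Ccnd1 stood at 5119, 3340 and 2828 in wild type, 2728 and 2133 with EGTA, and 4625, 728 and 1335 in CD14-deficient cells. It began level, at a log2 difference of -0.15, and was 4.59-fold lower at 6 h, with 3 probe sets between -1.96 and -2.20. Ccnd2 stood at 242, 2393 and 895 in wild type, 1277 and 507 with EGTA, and 51.5, 372 and 114 in CD14-deficient cells, 6.43-fold lower at 6 h, with 7 probe sets between -2.33 and -2.90. Both lay below every wild-type LPS array, while Ccnd3, the third D-type cyclin gene, lay at -0.34. Cdkn2d, an inhibitor of the kinases that D-type cyclins activate, was also lower, at 1929 and 727, 2.65-fold. The other 8 of 11 genes in the list lay within 2-fold, with a list median of 0.17. Of 24 cell cycle genes further on, Cdc20, an activator of mitotic exit, was 2.65-fold higher, but under 2-fold with the mean over probe sets. Ccne2, a cyclin of S phase entry, was 121 and at the floor, at least 3.14-fold lower, and Cdt1, which licenses replication origins, lay at the limit at 2.00-fold lower and was under it with that mean.

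Of 10 transcription factors of the myeloid lineage, 4 were called higher and 1 lower, against 2.53% and 3.08% of all genes. Their median was 0.53 (0.28 as deposited). Cebpa, a master regulator of myeloid differentiation, stood at 1235, the floor and 194 in wild type, 104 and 216 with EGTA, and 1771, 197 and 844 in CD14-deficient cells. It was at least 5.15-fold higher at 6 h but 1.90-fold higher against the array with EGTA. Cebpd, induced in acute-phase responses, was 320, 508 and 815 on the wild-type, EGTA and CD14-deficient arrays, 2.55-fold and 1.60-fold higher. Tfec, a factor largely restricted to macrophages, was 594 and 1450, 2.44-fold higher, and its relative Mitf lay at 1.12. Bhlhe40, a repressor of Il10 in other settings, lay at -1.20. Of 13 immediate early genes, 4 were called higher and 1 lower, against the same shares of all genes. Egr1 was 225 and 600, 2.67-fold higher, Egr2 138 and 382, 2.77-fold higher, and Klf4, a factor of monocyte differentiation, 1288 and 339, 3.80-fold lower. Fos, Jun and Junb lay at -0.13, -0.02 and 0.02.

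**Figure D3:**
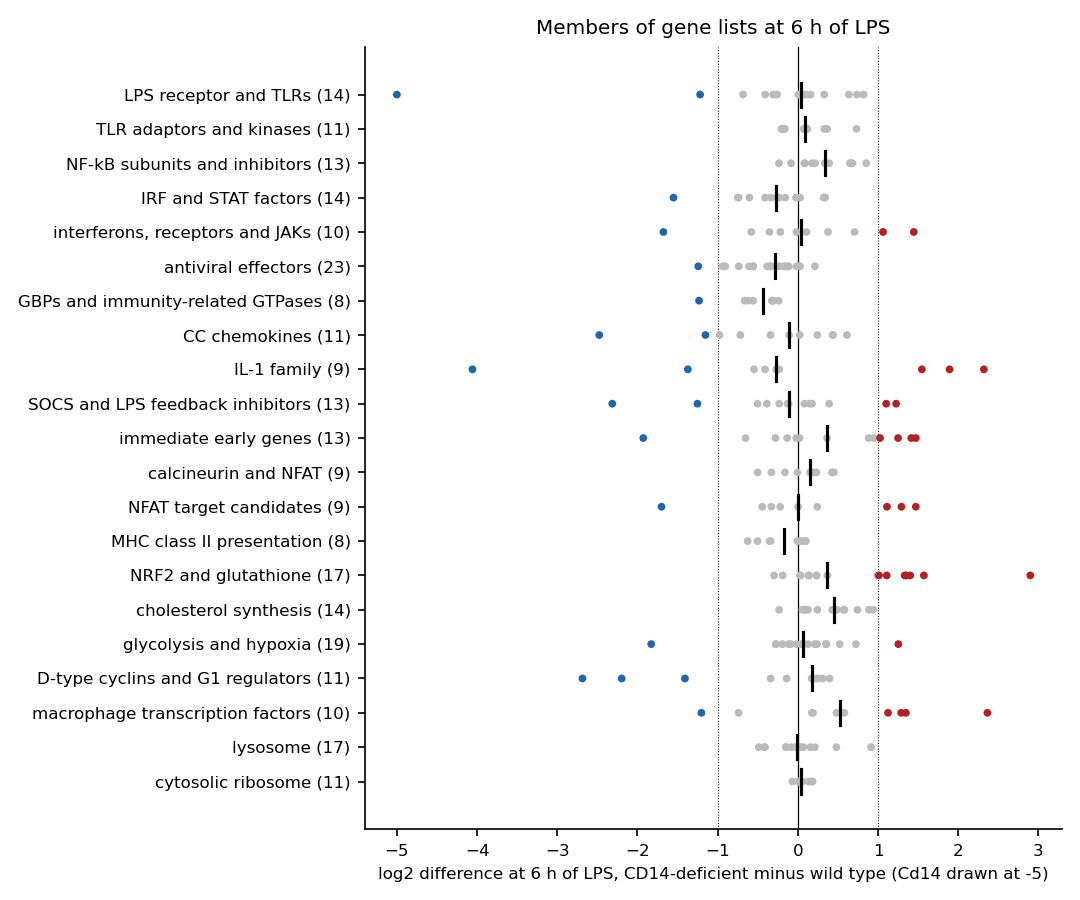
Log2 difference at 6 h of LPS, CD14-deficient minus wild type, for each compared member of 21 gene lists, with the number compared in parentheses, the median as a bar and dotted lines at 2-fold. The NRF2 and glutathione list has 7 of 17 members past the upper line and the antiviral list 1 of 23 past the lower one, while adaptors, NF-kB and lysosome genes hold within the lines. With the intensities as deposited the median of all genes lies at -0.27, and that of the NF-kB list at -0.01.

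The largest differences with both arrays above the floor held several genes outside these pathways. Sla, which encodes an adaptor that dampens receptor signalling, stood at 533, 83.9 and 196 in wild type, 78.3 and 382 with EGTA, and 578, 914 and 970 in CD14-deficient cells, 10.9-fold higher at 6 h. It was low on the wild-type LPS arrays and not on the CD14-deficient ones, and another probe set gave 3.05 beside 3.44. Gdf3, a TGF-beta family gene, was high in CD14-deficient cells at every time, at 1125, 784 and 606 against 122, 94.7 and 114 in wild type. Pik3cg, the catalytic subunit gene of PI3K gamma, was 71.8 and 392 at 6 h, 5.46-fold higher, and Sgk1, a kinase gene under PI3K control, 596 and 3183, 5.34-fold higher or 2.30-fold against the array with EGTA. Klf7, a zinc-finger factor gene, was 183 and 992, 5.43-fold higher, and was level before LPS. Sgms1, a sphingomyelin synthase gene, was 132 and 617, and the uncharacterised 2510009E07Rik 89.1 and 443.

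Lower by far was Cnn3, which encodes an actin-binding calponin. It stood at the floor, 1951 and 624 in wild type, 1976 and 633 with EGTA, and the floor, 126 and 47.2 in CD14-deficient cells, 15.5-fold lower at 6 h, with 5 probe sets between -2.83 and -4.45. Klrk1, which encodes the receptor NKG2D, stood at the floor, 333 and 511 in wild type and at the floor, 47.5 and the floor in CD14-deficient cells, 7.01-fold lower. Gadd45g, a growth arrest gene, was 3086 and 453, 6.82-fold lower. Erdr1 and Wdfy1, the latter described as an adaptor of TLR3 and TLR4 signalling, were lower at every time. Erdr1 stood at 2038, 2210 and 1201 in wild type and 196, 193 and 127 in CD14-deficient cells. Wdfy1 stood at 633, 613 and 950 against 51.4, 73.9 and 74.6, and its other probe sets gave -2.16 and -1.21 beside -3.05. In wild type both were close to their unstimulated level at 6 h, with log2 responses of 0.12 and -0.05. Among genes at the floor in CD14-deficient cells, and chosen after their values were seen, Rpgrip1 had been at 1313 in wild type and Rgcc at 789. Ddx4, a germ-cell RNA helicase gene, was 4.87-fold lower, and Ifi202b, an interferon-induced DNA-binding protein gene, 4.96-fold lower.

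Of 16 scavenger receptor and lectin genes compared, 2 were called higher and 1 lower, and the median was 0.25. Marco, a scavenger receptor gene, was at the floor on the wild-type arrays up to 6 h and at 73.2 at 24 h, with 78.9 at 24 h in EGTA. In CD14-deficient cells it stood at the floor, 298 and 2158, at least 7.78-fold higher at 6 h. Clec5a, a lectin gene, was 326 and 902, 2.76-fold higher, and Fcgr4, an Fc receptor gene, 5318 and 2607, 2.04-fold lower. Fpr2, a formyl peptide receptor gene, stood at 42.4, 340 and 2136 in wild type, 466 and 3266 with EGTA, and at the floor, 1551 and 5689 in CD14-deficient cells, 4.56-fold higher at 6 h. F10, the gene of coagulation factor X, was 141 and 740, 5.24-fold higher. Among nucleotide receptors P2ry2 was 48.7 and 180, 3.70-fold higher, and P2ry14 2860 and 1162, 2.46-fold lower. None of 17 lysosome genes, 11 cytosolic ribosome genes or 18 respiratory chain genes was called.

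The genes called at 6 h were then looked up on the unstimulated and 24 h arrays, whose values do not enter the 6 h difference directly. They are not fully independent of it, because all 8 arrays entered the normalization, the floor, the median and the choice of probe set. Of the 171 higher genes, 141 were bright enough to compare before LPS, and 13 of these (9.22%) were at least 2-fold higher there too, where 1.4% of all genes were higher and 4.6% differed either way. At 24 h, 49 of 159 (30.8%) were higher again, where 5.21% of all genes were. Among the lower genes, leaving out Cd14, 40 of 137 (29.2%) were at least 2-fold lower before LPS, where 3.2% of all genes were, and 124 of 181 (68.5%) at 24 h, where 6.21% were. Their median log2 difference was -0.42 before LPS and -1.37 at 24 h, against 0.16 and 0.67 for the higher genes. The times use different arrays of the same genotypes, and the labels do not say whether the cultures were separate.

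Higher at all 3 times were 7 genes, Adi1, Arap3, Egln3, Fasn, Gdf3, Paip1 and Stard4. Of these, Adi1 had 2 other bright probe sets on the other side of 0 at 6 h, and Egln3 was at the floor on all wild-type arrays. Lower at all 3 times were 34 besides Cd14, among them Ccl8, Ccl12, Ccnd2, Cd86, Erdr1, Fcgr4, Gadd45g, Gbp8, Iigp1, Isg20, Rpgrip1, Slfn4, Socs1, Tlr3 and Wdfy1. At 6 h alone 116 genes were higher, with Cxcl1, Cxcl2, Il1a, Il1b, Nlrp3, Tnf and Nfe2l2 among them, and 77 lower, with Sting1 and Irf4 among them. Of these, Cxcl2, Il1b and Tnf had been at least 2-fold lower before LPS. A gene too dim to compare at another time counts here as not called there.

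**Figure D4:**
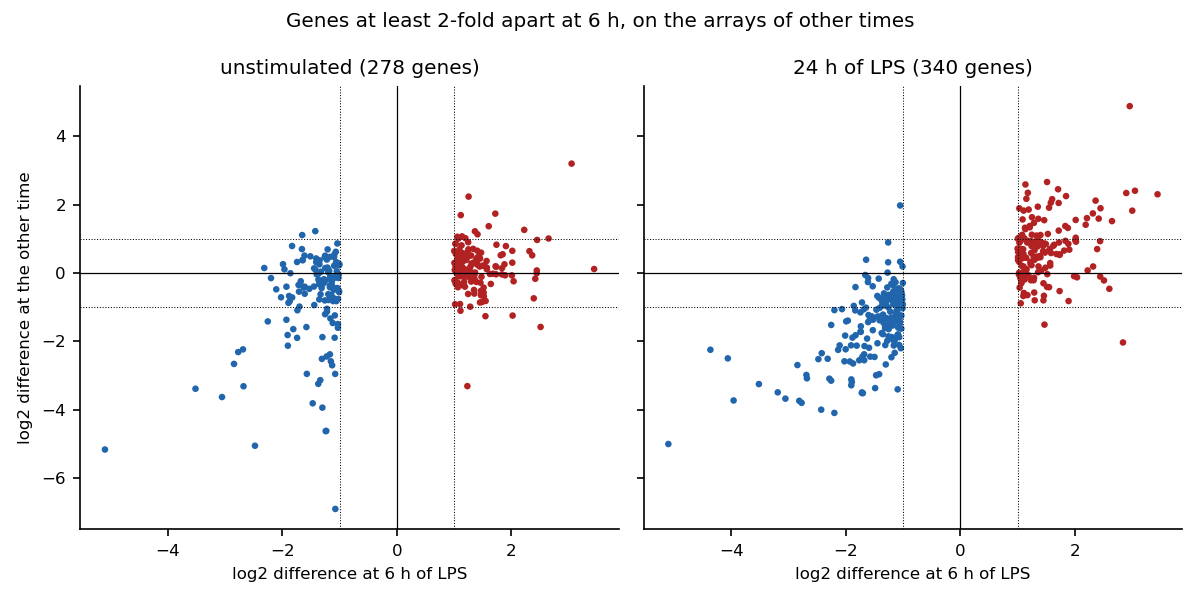
Log2 difference between genotypes before LPS (left) and at 24 h of LPS (right), on the vertical axes, of genes at least 2-fold higher (red) or lower (blue) at 6 h, given on the horizontal axes, for genes bright enough at both times and without Cd14. Before LPS 13 of 141 red and 40 of 137 blue points lie past the dotted 2-fold line in their own direction, and at 24 h 49 of 159 and 124 of 181 do.

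The difference in response to LPS, the log2 change from each genotype's own unstimulated array, separated genes that began level from those that did not. It shares the 6 h arrays with the differences above and adds the scatter of the unstimulated pair. Cnn3, Il33 and Klrk1 were at the floor before LPS in both genotypes, so the floor makes the difference in their response equal to the 6 h difference. Whether these genes began level is not known, because values below the floor were not ordered. For Erdr1, Gbp8 and Gdf3 the responses differed by -0.13, -0.19 and -0.15, and a 6 h difference of similar size was present before LPS. Saa3, Cxcl2 and Cxcl10 began lower in CD14-deficient cells, and their response there exceeded that of wild type by log2 values of 4.54, 4.08 and at least 3.59, the last a bound because Cxcl10 began at the floor. After 6 h of LPS Vegfa and Hbegf were higher than before it in wild type, by 1.20 and 1.41, and stood at -1.42 and -0.83 in CD14-deficient cells.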

How the data were processed

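RNA of 8 samples, 1 per group, was measured on Affymetrix arrays. The deposited values are linear intensities for 22690 probe sets, which the authors computed with MAS5 (version not named), per the submitters' processing notes. No source used here says if MAS5 scaled them to one target. The intensities were quantile normalized over the 8 arrays, which removes any shift of all genes together, raised to a floor at their 40th percentile (38.4), and log2 was taken. Gene names came from the platform annotation, and symbols were renewed by gene ID against RefSeq (GRCm38.p6). Of them 20393 had 1 gene, 691 several and 1606 were not listed, which left 12394 genes, each represented by its probe set of highest mean. No build is stated for the array, so coordinates are printed only for promoter windows. Genes at least 2-fold apart were counted. With 1 array per group no test was possible, and the number of arrays limits the precision.

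Named genes were the 15 largest differences in each direction among genes above the floor on both arrays, the 3 largest in each list with at least 5 compared members, any compared member of the lists of LPS receptors, CXCR3 ligands, neutrophil chemoattractants, the IL-1 family and the cytokines of the IL-6, IL-10 and IL-12 families, and a fixed set (the cytokine genes Csf2, Cxcl10, Ifnb1, Il2, Il6, Il10, Il12b and Tnf, with Cd14, Rcan1 and the prostaglandin genes Ptges and Ptgs2). Other names were chosen after their values were seen. The members and the 59 lists of 752 genes, 100 of them not analysed here, were chosen with earlier results of these data known. Alternatives were the intensities as deposited, equal medians, a floor at the 20th percentile, the mean over probe sets, other brightness limits and the wild-type array with EGTA as reference. The procedure was tested on simulated data. Python 3.11.15, numpy 2.4.6 and pandas 2.3.3 were used.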

Additional observations from a re-analysis of the deposited data

Results flagged for a closer look

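For 7 named genes the genotypes stood at least 2-fold apart in one direction at 6 h of LPS and in the other at another time. Each value is a pair of single arrays, and the difference between the times was not tested. Lower in CD14-deficient cells before LPS but higher at 6 h were Tnf, at a log2 difference of -1.10 before LPS, Il1b at -1.26, Cxcl2 at -1.57 and Saa3 at -3.31. The opposite order held for Ccne2, the cyclin gene of S phase entry, at 1.11 before LPS and at the floor in CD14-deficient cells at 6 h. Egr2 and Serpinb2, a plasminogen activator inhibitor gene, were higher at 6 h and lower at 24 h, at -1.51 and -2.03. Egr2 was at the floor in CD14-deficient cells at 24 h, and Serpinb2 was at the floor in wild type at 6 h, so these differences are bounds, as is that of Ccne2 at 6 h.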

How the results depend on the processing

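No paired analysis was possible because each group has 1 array. With the intensities as deposited, 99 genes were higher and 447 lower in place of 171 and 208, and the share of higher genes among those called went from 45.1% to 18.1%. The median of all genes then lay at -0.27, and the wild-type array had the brighter trimmed mean. With the brightness limit at the 75th percentile, fewer genes were compared (3713), and 94 were higher and 123 lower. Equal medians, a floor at the 20th percentile, the mean over probe sets, no brightness limit and the array with EGTA as reference kept both counts within 1.5 times, between 143 and 209 higher and between 178 and 261 lower. Of 86 named genes called, 75 were at least 2-fold apart in the same direction as deposited, 86 with equal medians, 86 with the lower floor, 78 with the mean over probe sets and 78 against the array with EGTA. As deposited, Abca1, Apoe, Egln3, Fasn, Herpud1, Ifngr1, Il12b, Saa3, Sesn1, Stab1 and Tnf were under 2-fold. With the mean over probe sets Adi1, Cdc20, Cdt1, Cebpd, Egln3, Icosl, Ifngr2 and Trib1 were, and against the array with EGTA Ccl12, Cebpa, Cebpd, Herpud1, Icosl, Il12b, Slfn4 and Stab1. Herpud1, an endoplasmic reticulum stress gene, stood at 1.15 and at -0.54 against the array with EGTA, and the cause was not tested. Values near the floor, such as those of Il33 and Slc7a11, limit the precision of their folds.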

Other observations

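Gene groups not described above were mostly within 2-fold at 6 h. Of 16 endoplasmic reticulum stress genes 1 was higher, Herpud1, and the list's median was 0.09 against wild type and -0.57 against the array with EGTA. Of 11 p53 target genes, Sesn1 was 61.9 in wild type and 138 in CD14-deficient cells, 2.23-fold higher, and Trp53inp1 lay at -0.92. Both had stood above these levels before LPS, Sesn1 at 1283 and 1915 and Trp53inp1 at 879 and 446. Among proteases and their inhibitors, Mmp9, a gelatinase gene at 43.3 before LPS and at the floor on the wild-type LPS arrays, stood at the floor, 125 and 210 in CD14-deficient cells. Serpinb2 stood at the floor at 6 h and 693 at 24 h in wild type and at 275 and 170 in CD14-deficient cells. None of 7 complement genes was called, and C1qa, a subunit gene of the first component, lay highest at 0.91.

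Several genes at the floor on the wild-type 6 h array are better known from other cell types, and they were named after their values were seen. Zap70, a T cell receptor kinase gene, stood at 209 in CD14-deficient cells at 6 h. Cd247, which encodes the zeta chain of that receptor, stood at 110.0, and Itgal, an integrin chain gene of leukocytes, at 126. Before LPS and at 24 h Zap70 was bright enough to compare and lay within 2-fold between genotypes. Cd247 was too dim to compare at both times, and Itgal was too dim before LPS and higher at 24 h. The T cell receptor chain genes Cd3e, Cd3g and Cd3d were at the floor on both 6 h arrays. Lox, which encodes an enzyme that cross-links collagen, stood at 308, while Col1a1, Col1a2 and Col3a1 were at the floor on both arrays.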
